A study of Mus musculus with 6 samples.

Results

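The genes described here are Gsta4, a glutathione transferase gene of chromosome 9, and the chromosome 10 neighbours Gstt1, Gstt2, Gstt3 and Ddt, set beside Gstp1, Gstp2, Gstm1, Gstm2 and Gsto1, other members of the transferase family that serve as a contrast. They are 10 of the 55487 genes counted, and all 10 passed the filter on low counts that left 11224 genes for testing. They were named by symbol with their values in these libraries already known, so their differences between the groups are given as a description, with no p-value. RNA was sequenced from muscle stem cells, the resident stem cells that rebuild muscle fibres, taken from 10-week-old mice 60 h after injury with the snake venom toxin cardiotoxin. There were 3 libraries from mice labelled as Setdb1 knockouts (KO) that were given tamoxifen, and 3 control libraries from wild-type mice that were given oil. Genotype and tamoxifen changed together, so their effects cannot be told apart. Every mouse in both groups had the same injury, and no uninjured sample is part of the comparison. The labels name neither the recombinase, nor the promoter that drives it, nor the deleted exon.

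Setdb1 encodes a histone methyltransferase that places the repressive mark H3K9me3. Glutathione transferases join the tripeptide glutathione to reactive, electron-poor molecules such as the aldehydes formed when membrane lipids are oxidised, and the conjugates are then pumped out of the cell. The mammalian cytosolic enzymes fall into classes, among them alpha, mu, pi, theta and omega, whose genes lie in clusters that arose by duplication. GSTA4, of the alpha class, is known for its high activity on the lipid aldehyde hydroxynonenal. The Gstt genes encode the theta class. Ddt encodes D-dopachrome tautomerase, a cytokine-like relative of macrophage migration inhibitory factor (MIF), and lies at the edge of the Gstt genes, next to Gstt3.

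Start-site sequences of genes with large differences between the groups are shown first, because these genes lie in 2 clusters and their start sites can be set side by side. RefSeq (GRCm38.p6) gave a window of 250 bases before to 50 bases after the start for 8 of the 10 genes, and none for Gsta4 and Gstt2. Each is printed 5′ to 3′ on the strand of its gene, and the capitals mark CG dinucleotides, the sites of DNA methylation in mammals. From the chromosome 10 cluster come Gstt1 (chr10:75797682-75797981, minus strand), Gstt3 (chr10:75781373-75781672, minus strand) and Ddt (chr10:75773325-75773624, minus strand).
Gstt1: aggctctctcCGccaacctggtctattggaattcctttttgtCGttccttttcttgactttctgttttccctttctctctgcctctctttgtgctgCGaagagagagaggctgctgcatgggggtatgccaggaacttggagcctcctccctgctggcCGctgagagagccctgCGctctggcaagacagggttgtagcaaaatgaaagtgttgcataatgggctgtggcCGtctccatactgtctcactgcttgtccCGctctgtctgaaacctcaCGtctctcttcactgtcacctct
Gstt3: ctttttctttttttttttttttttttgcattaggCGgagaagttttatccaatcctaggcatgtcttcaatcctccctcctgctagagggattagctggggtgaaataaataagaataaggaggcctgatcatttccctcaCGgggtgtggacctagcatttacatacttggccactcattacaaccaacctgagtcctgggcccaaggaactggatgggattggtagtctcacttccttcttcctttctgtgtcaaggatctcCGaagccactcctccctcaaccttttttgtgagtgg
Ddt: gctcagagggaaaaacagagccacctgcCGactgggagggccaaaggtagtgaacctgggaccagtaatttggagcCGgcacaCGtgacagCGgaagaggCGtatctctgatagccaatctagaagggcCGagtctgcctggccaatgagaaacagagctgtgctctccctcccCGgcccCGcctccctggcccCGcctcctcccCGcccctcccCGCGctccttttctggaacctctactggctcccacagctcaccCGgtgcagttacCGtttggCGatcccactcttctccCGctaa
From the chromosome 9 cluster come Gsta1 (chr9:78230419-78230718, plus strand) and the predicted gene Gm3776 (chr9:78256879-78257178, plus strand), neighbours of Gsta4.
Gsta1: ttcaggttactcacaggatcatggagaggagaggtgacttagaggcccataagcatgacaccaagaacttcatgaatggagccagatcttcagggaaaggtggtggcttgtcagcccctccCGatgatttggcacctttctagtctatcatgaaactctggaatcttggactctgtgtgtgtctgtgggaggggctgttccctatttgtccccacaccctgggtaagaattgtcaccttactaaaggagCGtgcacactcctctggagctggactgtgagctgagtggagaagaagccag
Gm3776: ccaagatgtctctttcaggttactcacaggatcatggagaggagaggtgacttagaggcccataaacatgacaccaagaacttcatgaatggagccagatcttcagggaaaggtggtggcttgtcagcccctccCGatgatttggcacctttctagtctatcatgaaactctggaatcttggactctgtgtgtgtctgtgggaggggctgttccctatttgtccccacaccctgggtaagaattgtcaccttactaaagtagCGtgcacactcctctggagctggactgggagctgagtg

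The median over all 27025 RefSeq promoters was 7 CG dinucleotides in such a window. The Ddt window held 16, that of Gstt1 held 8, that of Gstt3 held 3, and those of Gsta1 and Gm3776 held 2 each. Ddt, Gstt1 and Gstt3 thus differed in CG number within 1 cluster. Of all promoters, 66.5% had fewer CG dinucleotides than Ddt, 51.0% fewer than Gstt1 and 23.8% fewer than Gstt3. Laid over each other with an offset of 13 bases, the Gsta1 and Gm3776 windows were identical at 284 of 287 positions (99.0%). The antioxidant response element core TGACNNNGC, the sequence bound by NRF2 with its small MAF partners, was searched on both strands. It was in 12.5% of all promoters and in none of the 8 windows of the genes described here, which is near that share for so few windows. Of the neighbours' windows searched, that of Mif, which encodes MIF, held 1 match, and those of Gsta1, Gsta2, Gm3776 and Gstt4 held 0. The xenobiotic response element core GCGTG, bound by the aryl hydrocarbon receptor, was in 32.5% of all promoters, in the windows of Gstp1 and Gstm1, and in those of Gsta1, Gsta2 and Gm3776 of the chromosome 9 cluster. These matches describe letters in a window of 300 bases and do not locate binding.

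Total counts per library ran from 4052569 to 5178823 in KO libraries and from 4568845 to 5690844 in control libraries. Between 28.6% and 38.4% of them fell on the ribosomal RNA gene CT010467.1, which left 2002124 to 3050460 counts on protein-coding genes. Levels are given as CPM, counts scaled to a common library size with TMM factors. Setdb1 had 16.5, 12.7 and 14.7 CPM in KO libraries, against 34.9, 40.5 and 32.1 CPM in control libraries (log2 fold change -1.30, SE 0.16, adjusted p = 0.000209 in edgeR's quasi-likelihood test with Benjamini-Hochberg adjustment). Libraries differed in other cell types. The summed CPM of 10 neutrophil markers was 3.46, 701 and 266 in KO libraries 1, 2 and 3, against 1.60, 2.71 and 1980 in control libraries 1, 2 and 3. The summed CPM of 8 muscle stem cell markers ran from 1010 to 1240 in KO libraries and from 874 to 964 in control libraries, and 1 of 8 tested markers (Myod1) passed the threshold. Myod1 alone had 361.5, 276.2 and 237.6 CPM in KO libraries, against 141.0, 148.2 and 137.4 CPM in control libraries. The median log2 fold change of this list was 0.01, with 4 of 8 above 0 and Pax7 at -0.01. For 7 mural cell markers the summed CPM ran from 170 to 218 in KO libraries and from 93.9 to 127 in control libraries. Past the threshold were 2 of 6 tested mural markers (Tagln and Acta2). Of these 6, 5 had a log2 fold change above 0 (median 0.74), while Rgs5 stood at -0.002. Sums of 8 fibro-adipogenic markers were 1220 to 1780 in KO libraries and 616 to 1370 in control libraries. Sums of 8 macrophage markers were 8.78 to 35.5 in KO libraries and 9.39 to 83.9 in control libraries. Sums of 7 endothelial markers were 11.9 to 14.4 in KO libraries and 5.43 to 13.0 in control libraries. No marker of these lists was at 0 in all libraries. The part of the mural and stem cell markers, whose sums did not overlap between the groups, in the results below was not tested, and in bulk RNA fewer cells of a type and less RNA per cell cannot be told apart.

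Gsta4 (ENSMUSG00000032348, GRCm38 chr9:78182774-78209349, plus strand) showed the widest separation of the 10 genes. It had 85.4, 114.8 and 94.0 CPM in KO libraries, against 1.00, 2.30 and 2.22 CPM in control libraries. These values rest on 321, 559 and 481 reads in KO libraries and on 5, 11 and 12 reads in control libraries. The control reads alone were too few for Gsta4 to pass the low-count filter. The groups were far from touching, since the lowest KO value was 37.2 times the highest control value. On the log2 scale the fitted difference was 5.72 (SE 0.22). Without control library 3 and KO library 1, the control library with the most and the KO library with the least neutrophil marker RNA, the log2 fold change was 5.97. The libraries left had neutrophil marker sums of 701 and 266 CPM (KO) and 1.60 and 2.71 CPM (control). Leaving out both thus does not balance neutrophil RNA between the groups. No 50-base stretch of the Gsta4 transcripts occurred letter for letter in the annotated transcripts of another gene. Copies with mismatches were not searched for.

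**Figure D1:**
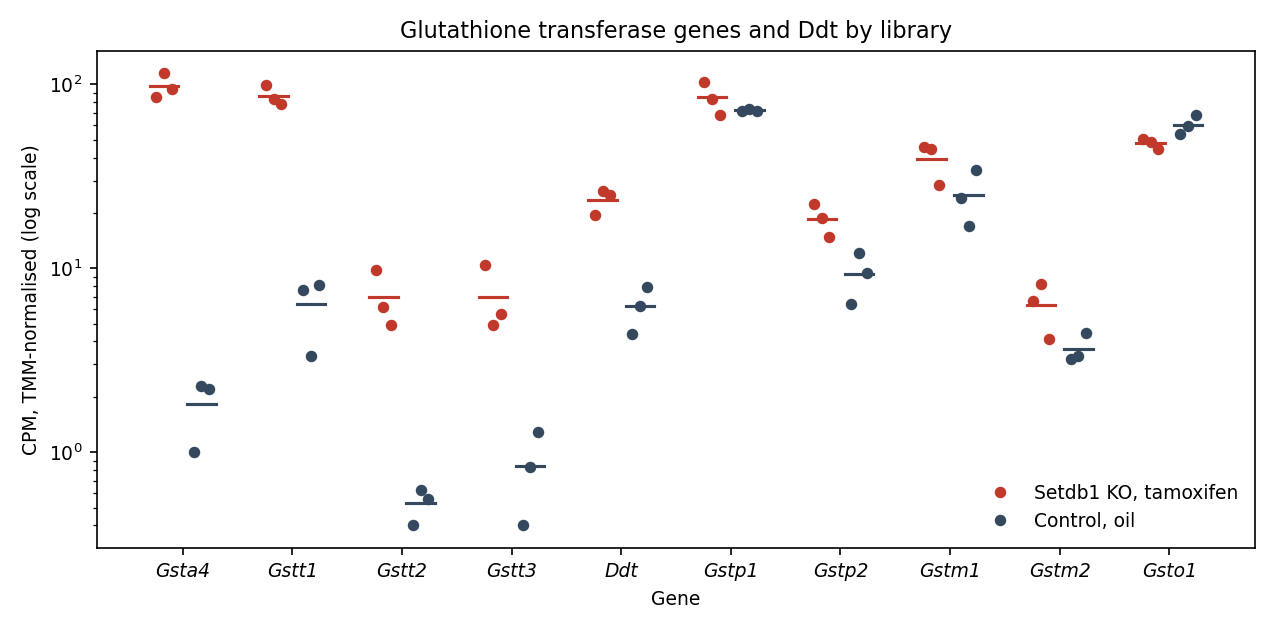
Level of each gene in each library in CPM (log axis). Points are libraries, with the 3 Setdb1 KO libraries (red) left of the 3 control libraries (blue), and bars are group means. For Gsta4, Gstt1, Gstt2, Gstt3, Ddt and Gstp2 every KO library lies above every control library, and for Gsto1 every KO library lies below.

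Genes around Gsta4 that were not among the 10 were then examined. Within 500 kb of Gsta4 lay 44 other annotated genes, of which 35 had counts and 11 were tested. Higher in KO libraries were 2 of these 11, Ick and Gm3776, and 0 were lower, where 2.83% of all tested genes passed the threshold in either direction. The same 2 were called by DESeq2 and by limma-voom.

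Gm3776 (chr9:78257129-78269166, plus strand) is a predicted gene beyond Gsta1 that shares 83.0% of its 50-base stretches with Gsta1, and is listed here with the transferase family. It had 8.25, 8.21 and 5.86 CPM in KO libraries, against 0.401, 0.418 and 0.185 CPM in control libraries, from 31, 40 and 30 reads and from 2, 2 and 1 reads. Its level rose in KO libraries (log2 fold change 4.39, SE 0.46, adjusted p = 4.39e-05 in edgeR's quasi-likelihood test), with adjusted p between 5.77e-14 and 0.000828 over the 16 alternatives. All its control counts lay below the filter's minimum count of 10, so Gm3776 was tested only because of its KO libraries. Gsta1 (chr9:78230656-78242684), an alpha-class transferase gene between Gsta4 and Gm3776, failed the low-count filter and was looked at after its values were seen. It had 3, 12 and 16 reads in KO libraries and 0 reads in each control library. Summed over the libraries of a group this is at least 11.4-fold higher in KO cells, taking 3 reads over the control group as the floor. Of the 50-base stretches of Gsta1, 90.5% occurred in another gene, mostly Gm3776, so how reads were divided between both is uncertain. The genes Gsta2 and Gm10639, further along the same cluster, had 3 and 2 reads in all KO libraries together, against 1 and 0 reads in all control libraries, too few to compare.

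On the other side of Gsta4, Ick (chr9:78109192-78172107, plus strand) encodes a protein kinase that acts in cilia. It ended 10.7 kb before Gsta4 began. It had 27.4, 34.7 and 28.0 CPM in KO libraries, against 17.0, 18.2 and 16.8 CPM in control libraries, and the groups did not overlap. It rose in KO libraries (log2 fold change 0.79, SE 0.15, adjusted p = 0.00850 in edgeR's quasi-likelihood test). Without KO library 2 the log2 fold change of Ick was 0.67 and its adjusted p 0.0757. Rn7sk, the gene of the small nuclear RNA 7SK, lay on the opposite strand between Ick and Gsta4, with a log2 fold change of 0.25 and an SE of 0.26 (adjusted p = 0.673). The 9 tested neighbours that did not pass the threshold had log2 fold changes from -0.49 to 0.52. Among them was Gclc, the catalytic subunit of glutamate-cysteine ligase, 388 kb from Gsta4, at -0.49 (adjusted p = 0.0852).

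The chromosome 10 genes Ddt, Gstt3, Gstt1 and Gstt2 span 66.2 kb (chr10:75771230-75837424) and lie on the minus strand in that order of coordinates, with Gstt4 between Gstt1 and Gstt2. Only 700 bases separate Ddt from Gstt3, and 2.40 kb separate Gstt3 from Gstt1. All of them had higher levels in every KO library than in any control library.

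Gstt1 (ENSMUSG00000001663, chr10:75783813-75798584) is the theta-class gene 2.40 kb beyond Gstt3. It had 98.7, 83.8 and 78.2 CPM in KO libraries, against 7.61, 3.34 and 8.13 CPM in control libraries, from 371, 408 and 400 reads and from 38, 16 and 44 reads. Its lowest KO value was 9.62 times its highest control value. The mean was 86.9 ± 10.6 CPM in KO libraries and 6.36 ± 2.63 CPM in control libraries (SD, n = 3 each). The log2 fold change was 3.75 (SE 0.24), and none of its 50-base stretches occurred letter for letter in the annotated transcripts of another gene.

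Gstt2 (ENSMUSG00000033318, chr10:75831114-75837424) had 9.84, 6.16 and 4.89 CPM in KO libraries, against 0.401, 0.626 and 0.554 CPM in control libraries. The KO values rest on 37, 30 and 25 reads, and the control values on 2, 3 and 3 reads. The log2 fold change was 3.64 (SE 0.46), close in size to that of Gstt1 with a wider error. Gstt3 (ENSMUSG00000001665, chr10:75774115-75781414) had 10.4, 4.93 and 5.67 CPM in KO libraries, against 0.401, 0.835 and 1.29 CPM in control libraries. Its reads numbered 39, 24 and 29 in KO libraries and 2, 4 and 7 in control libraries, and the log2 fold change was 2.98 (SE 0.47). KO library 1 was the highest KO library for Gstt1, Gstt2 and Gstt3, and the lowest for Gsta4 and Ddt.

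Ddt (ENSMUSG00000001666, chr10:75771230-75773414) had 19.4, 26.3 and 25.0 CPM in KO libraries, against 4.41, 6.26 and 7.94 CPM in control libraries. Its log2 fold change, 1.92 (SE 0.22), was smaller than those of the 3 Gstt genes, and the lowest KO value was 2.44 times the highest control value. With control library 3 and KO library 1 left out, the log2 fold change was 2.26 for Ddt, 3.87 for Gstt1, 3.37 for Gstt2 and 3.06 for Gstt3. As said for Gsta4, this choice leaves neutrophil marker RNA unequal between the groups. A gene model that joins Gstt3 and Ddt, Gm20441, is annotated as a readthrough transcript on the same strand. It overlaps 524 exonic bases of Gstt3 and 232 exonic bases of Ddt, and holds 12.2% of the 50-base stretches of Gstt3 and 25.3% of those of Ddt. Gm20441 itself had 0 reads in all 6 libraries, so reads from a joined transcript, if counted to Gstt3 or Ddt, could not be told apart from theirs.

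Gstt4 (chr10:75814943-75822543), the theta-class gene left between Gstt1 and Gstt2, failed the low-count filter and was also chosen after its values were seen. It had 5, 8 and 13 reads in KO libraries, against 1, 0 and 1 reads in control libraries. The ratio of the summed counts, scaled for library size, was 14.4 (95% exact interval 3.60 to 125, counting error only). Every KO library had more Gstt4 reads than any control library.

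None of the tested genes that flank the interval passed the threshold. Within 500 kb lay 45 other genes, of which 28 had counts and 11 were tested, and 0 of the 11 were called in edgeR, DESeq2 or limma-voom, while 2 higher and 1 lower had an unadjusted p under 0.05 in edgeR. Their log2 fold changes ran from -0.55 to 1.56, with a median of -0.03. Cabin1, which encodes a calcineurin-binding protein and ends 6.89 kb from Ddt, had 51.3, 44.8 and 50.8 CPM in KO libraries, against 40.7, 38.8 and 34.0 CPM in control libraries. The groups did not overlap, but the log2 fold change was 0.37 (SE 0.13) and the adjusted p 0.144.

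Mif, the cytokine gene related to Ddt, lies 21.9 kb beyond Gstt2 and had 160.1, 133.7 and 116.5 CPM in KO libraries, against 88.9, 93.5 and 134.5 CPM in control libraries. The groups overlapped through control library 3 (log2 fold change 0.37, SE 0.17, adjusted p = 0.284). Without control library 3 the log2 fold change of Mif was 0.58 with an adjusted p of 0.0330 in the edgeR test. Control library 3 had the most neutrophil marker RNA. The sums in the libraries left were 3.46, 701 and 266 CPM (KO) and 1.60 and 2.71 CPM (control). The part of neutrophil RNA in the Mif values was not tested. Ggt5, a gamma-glutamyl transferase gene 154 kb away, was the neighbour with the largest log2 fold change, 1.56 (SE 0.55, adjusted p = 0.151), at 2.93, 2.26 and 2.54 CPM in KO libraries and 1.20, 0.209 and 1.11 CPM in control libraries.

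**Figure D2:**
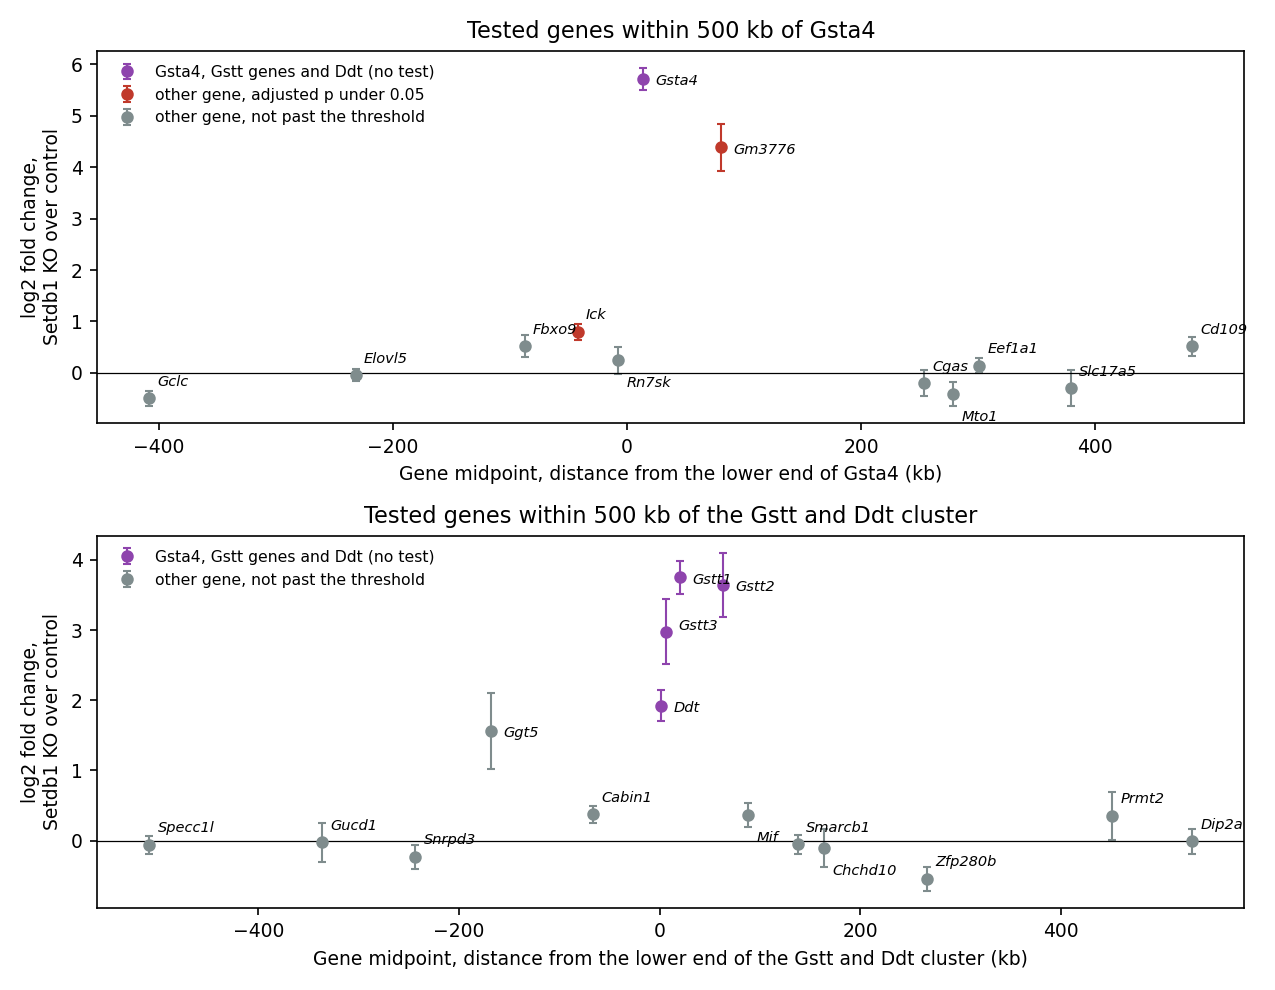
Log2 fold change (Setdb1 KO over control) of each tested gene within 500 kb of Gsta4 (top) and of the Gstt and Ddt cluster (bottom), against the distance of its midpoint in kb from the lower end of Gsta4 or of the cluster. Bars are SE. Gsta4, the Gstt genes and Ddt (purple) were chosen with these values known, and no p is given for them. In red, Gm3776 at 4.39 and Ick at 0.79 passed the threshold, and the other neighbours (grey) lie between -0.55 and 1.56.

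The transferases of other classes, taken for contrast, had smaller differences. Gstp1 (ENSMUSG00000060803, chr19:4035407-4037985), a pi-class gene, had 103.2, 83.4 and 68.2 CPM in KO libraries, against 71.7, 73.3 and 71.9 CPM in control libraries. The groups overlapped, and the log2 fold change was 0.23 (SE 0.14). Its neighbour Gstp2 (ENSMUSG00000038155, chr19:4040285-4046023) had 22.3, 18.7 and 14.9 CPM in KO libraries, against 6.41, 12.1 and 9.42 CPM in control libraries, with a log2 fold change of 0.99 (SE 0.23). The groups did not touch, but 49.1% of the 50-base stretches of Gstp2 also occurred in Gstp1, so the division of reads between the pair is uncertain.

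In both mu-class genes the groups overlapped. Gstm1 (ENSMUSG00000058135, chr3:108012255-108017973) had 45.5, 44.6 and 28.3 CPM in KO libraries, against 24.2, 16.9 and 34.4 CPM in control libraries (log2 fold change 0.64, SE 0.29). Gstm2 (ENSMUSG00000040562, chr3:107981702-107986453) had 6.65, 8.21 and 4.10 CPM in KO libraries, against 3.20, 3.34 and 4.43 CPM in control libraries (log2 fold change 0.78, SE 0.33). In both, KO library 3 fell within the range of the control libraries. Gsto1 (ENSMUSG00000025068, chr19:47854970-47864790), an omega-class gene whose enzyme has thioltransferase and dehydroascorbate reductase activity, had 50.3, 48.5 and 44.4 CPM in KO libraries, against 53.5, 59.3 and 67.8 CPM in control libraries. It was the one gene of the 10 with all KO libraries below all control libraries, by a log2 fold change of -0.34 (SE 0.12).

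A log2 fold change of at least 1 was reached by 5 of the 10 genes, and by 2.82% of all tested genes. In 6 of the 10, every KO library exceeded every control library, as in 12.8% of all tested genes. Since the genes were chosen on this contrast, these counts only describe the choice. The log2 fold change of Gstp2 stayed between 0.77 and 1.21 over 16 alternatives. The median log2 fold change was 1.46 over the 10 genes and 0.0074 over all tested genes. At the edge of the choice, Ddt (1.92) was the smallest difference in the chromosome 10 cluster, and Gstp2 (0.99) the largest among the genes taken for contrast.

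Levels of different genes were compared per length, as CPM per kilobase of merged exons. In KO libraries Gsta4 stood at 77.5 ± 11.9, Gstt1 at 56.9 ± 6.94 and Gstp1 at 54.9 ± 11.3 CPM per kb, followed by Ddt at 30.5 ± 4.73, Gstm1 at 26.8 ± 6.55, Gsto1 at 23.6 (range 21.93 to 24.85) and Gstp2 at 16.7 ± 3.37 CPM per kb (SD, n = 3). Gstm2, Gstt3 and Gstt2 closed the order at 3.77 ± 1.24, 1.82 ± 0.77 and 1.68 ± 0.62 CPM per kb. The ranges of Gstt1 and Gstp1 overlapped, as did those of Ddt and Gstm1, Gstm1 and Gsto1, Gstm2 and Gstt3, and Gstt3 and Gstt2. Those of Gstm1 (19.24 to 30.88) and Gstp2 (13.34 to 20.07 CPM per kb) overlapped as well. The ranges alone thus do not order these pairs. Library by library, Gstm2 lay above Gstt3 in every KO library (3.96, 4.89 and 2.44 against 2.70, 1.28 and 1.475 CPM per kb). With the longest transcript of each gene in place of merged exons, Gstp1 stood at 103 ± 21.4, Gsta4 at 100.4 ± 15.5 and Gstt1 at 78.6 ± 9.59 CPM per kb, so the place of Gsta4 above Gstp1 depends on the length used.

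In control libraries the order was another. Gstp1 led at 46.7 ± 0.56, before Gsto1 at 29.8 ± 3.56 and Gstm1 at 17.1 ± 5.95 CPM per kb, while Gstt1 stood at 4.16 ± 1.72 and Gsta4 at 1.45 ± 0.57 CPM per kb. Among 29 transferase genes, Gsta4 ranked 1 in KO libraries and 11 in control libraries by this measure, Gstt1 ranked 2 in KO libraries and 7 in control libraries, and Gstp1 ranked 3 in KO libraries and 1 in control libraries.

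Summed over 29 transferase genes, the level was 317.2, 315.2 and 259.1 CPM per kb in KO libraries, against 120.9, 121.3 and 141.5 CPM per kb in control libraries, a ratio of means of 2.32. Without Gsta4, Gstt1, Gstt2, Gstt3 and Gm3776 it was 150.9 ± 23.9 CPM per kb in KO libraries and 121.6 ± 10.6 CPM per kb in control libraries, a ratio of 1.24. The groups then overlapped, since KO library 3 (124.3 CPM per kb) lay below control library 3 (133.7 CPM per kb). Gsta4 made up 26.2 ± 4.30% of the summed level in KO libraries and 1.13 ± 0.43% in control libraries (SD, n = 3 each). For Gstt1 the share was 19.2 ± 1.57% in KO libraries and 3.23 ± 1.25% in control libraries. The share of Gstp1 was 18.4 ± 2.29% in KO libraries and 36.7 ± 3.40% in control libraries, although its own level overlapped between the groups. These shares follow from the chosen genes and are a description.

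**Figure D3:**
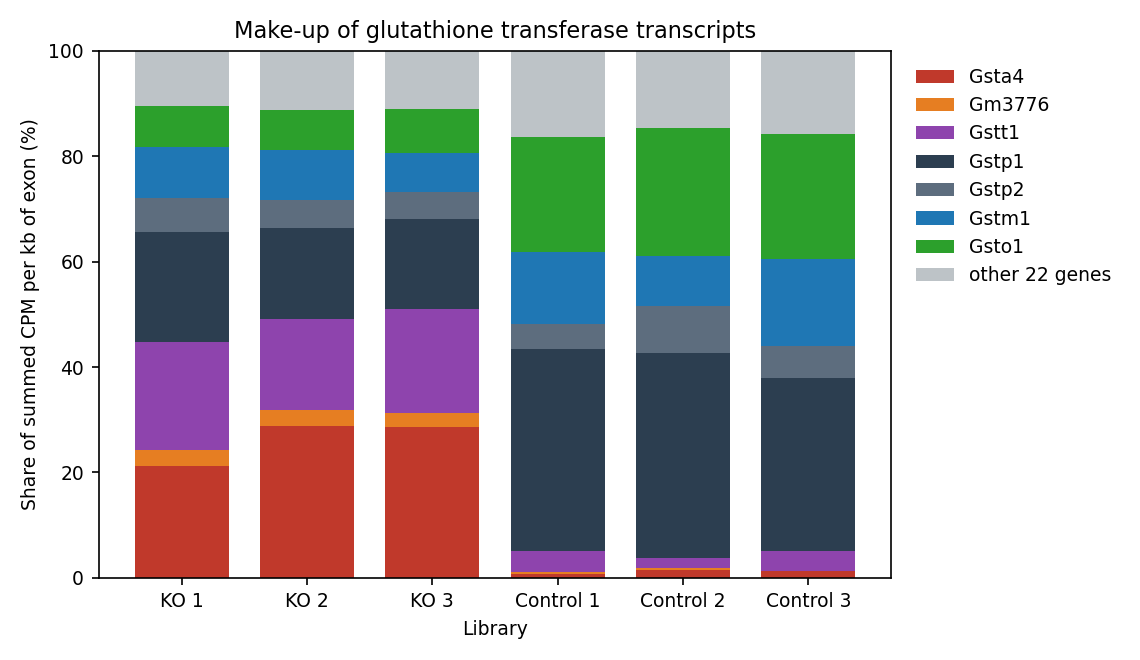
Make-up of the summed level of 29 glutathione transferase genes (CPM per kb of merged exons, in percent of the sum) in each library, with the 3 Setdb1 KO libraries left of the 3 control libraries. Gsta4 and Gstt1 average 26.2% and 19.2% of the sum in KO libraries, and 1.13% and 3.23% in control libraries, where Gstp1 averages 36.7%.

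The rest of the transferase family was taken from a list chosen by function. Of 23 other family members in the table, 7 were tested, and 1 was called higher (Gm3776, above) and 0 lower, with a median log2 fold change of 0.37. The 6 others did not pass the threshold. They included Gstm5, a mu-class gene, at 7.58 ± 1.20 CPM in KO libraries and 6.50 ± 0.40 CPM in control libraries (adjusted p = 0.687), and the microsomal transferase gene Mgst1 at 6.15 ± 1.08 CPM in KO libraries and 4.76 ± 0.99 CPM in control libraries (adjusted p = 0.550). Alox5ap, the activating protein of leukotriene synthesis and a gene of myeloid cells, had 2.66, 4.93 and 2.15 CPM in KO libraries, against 0.401, 0.209 and 5.91 CPM in control libraries. Its high control value fell in control library 3.

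The lists of glutathione genes are small beside the 2.83% of all tested genes that passed the threshold, so a count of 0 in them is near that background. For synthesis and turnover of glutathione, 0 of 12 tested genes passed the threshold in edgeR, DESeq2 or limma-voom, and before adjustment 1 higher and 1 lower had a p under 0.05. Slc3a2, the heavy chain of the cystine importer, had 92.0 ± 3.05 CPM in KO libraries and 93.1 ± 2.48 CPM in control libraries (adjusted p = 0.953), and the aminopeptidase gene Lap3 had 50.5 ± 9.71 CPM in KO libraries and 61.0 ± 3.09 CPM in control libraries (adjusted p = 0.337). For reduction and peroxidases, 0 of 19 passed in any of the tools, and before adjustment 3 higher and 1 lower had a p under 0.05. The highest mean CPM over all 6 libraries in this list, not corrected for length, were those of Gpx1, which reduces hydrogen peroxide, at 82.6 ± 7.77 CPM in KO libraries and 82.9 ± 14.7 CPM in control libraries (adjusted p = 0.989), and Prdx6, a peroxiredoxin gene, at 70.6 ± 9.08 CPM in KO libraries and 86.6 ± 7.93 CPM in control libraries (adjusted p = 0.231).

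Of 17 tested genes for enzymes that remove reactive carbonyls and epoxides, 2 were higher and 0 lower, where 2.22% of all tested genes were called higher and 0.615% lower. The same counts came from DESeq2 and limma-voom. Cbr3, a carbonyl reductase gene of chromosome 16, had 18.9, 26.7 and 20.5 CPM in KO libraries, against 1.20, 1.25 and 2.22 CPM in control libraries (log2 fold change 3.79, SE 0.27, adjusted p = 8.09e-07). Ephx1, the microsomal epoxide hydrolase gene, had 12.8, 14.0 and 9.19 CPM in KO libraries, against 3.40, 2.92 and 2.22 CPM in control libraries (log2 fold change 2.06, SE 0.28, adjusted p = 0.000584). In both genes every KO library lay above every control library. Both were already known as higher in these data when the list was drawn up. Control reads of Cbr3 numbered 6, 6 and 12, too few to pass the low-count filter without its KO libraries. The 15 others did not pass the threshold, and the median of the list was 0.32.

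Of 5 tested exporters of glutathione conjugates, 0 passed in any of the tools, and before adjustment 1 higher and 1 lower had a p under 0.05. Abcc1, the main conjugate pump of many cells, had 67.8 ± 5.02 CPM in KO libraries and 90.0 ± 7.05 CPM in control libraries (adjusted p = 0.0737). Of 12 tested regulators of transferase genes, 0 passed in any of the tools, and before adjustment 3 higher and 3 lower had a p under 0.05. Nfe2l2, which encodes NRF2, had 94.2 ± 3.56 CPM in KO libraries and 112.0 ± 6.73 CPM in control libraries (adjusted p = 0.255). Tiparp, a target and repressor of the aryl hydrocarbon receptor, had 132.1 ± 15.6 CPM in KO libraries and 152.4 ± 14.7 CPM in control libraries (adjusted p = 0.425). Of 4 tested genes of the MIF family and its receptors, 0 passed in any of the tools, and before adjustment 1 higher had a p under 0.05. The MIF co-receptor gene Cd44 had 950.3 ± 61.6 CPM in KO libraries and 917.0 ± 51.2 CPM in control libraries (adjusted p = 0.878).

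**Figure D4:**
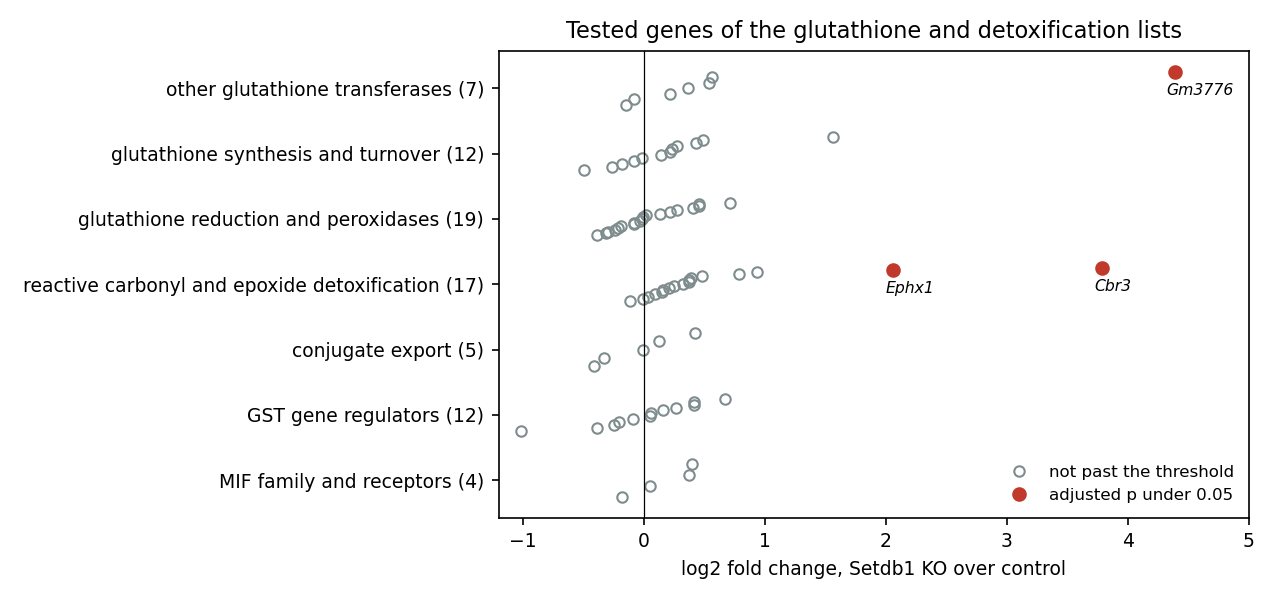
Log2 fold change (Setdb1 KO over control) of the tested genes of 7 lists, with the number tested in brackets. Filled points have an adjusted p under 0.05. These are Gm3776 at 4.39, Cbr3 at 3.79 and Ephx1 at 2.06, and the open points lie between -1.01 and 1.56.

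The genes whose profiles were nearest to those of Gsta4 and Gstt1 were taken from 10343 candidates, by the root mean square difference of log2 CPM, centred on the control mean, over the 6 libraries. For Gsta4 they were Wnt10b (0.99), Tcfl5 (1.15) and Cbr3 (1.42), and for Gstt1 they were Tcfl5 (0.35), Wnt10b (0.43) and Cbr3 (0.43). The same 3 genes led both lists, and the nearest profile lay further from Gsta4 than from Gstt1. Tcfl5, a transcription factor gene best known from the testis, had 18.1, 16.2 and 18.8 CPM in KO libraries, against 1.00, 0.418 and 0.554 CPM in control libraries. Wnt10b, a Wnt ligand gene, had 11.2, 8.01 and 8.99 CPM in KO libraries, and 0, 0 and 0.185 CPM in control libraries, the last from 1 read. Likeness over 6 libraries in 2 groups mostly measures the size of the difference between the groups, on a scale with 0.5 CPM added. That addition shrinks differences of genes with control values near 0. The fitted log2 fold changes were 6.68 for Wnt10b, 4.7 for Tcfl5 and 3.79 for Cbr3, against 5.72 for Gsta4 and 3.75 for Gstt1. A near profile is therefore not an equal fold change.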

How the data were processed

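RNA sequencing libraries of mouse muscle stem cells (3 Setdb1 KO, 3 control) were compared. The labels' protocols name both a stranded total RNA kit with ribosomal RNA removal and a SMARTER mRNA kit. STAR, Salmon and DESeq2 1.34.0 with GRCm38 are named, per the submitters' processing notes. How reads were counted, with which strand setting and annotation, is not given in the sources used here. Deposited values are raw counts, whole numbers for each Ensembl gene and library. Symbols were matched for 55141 of 55487 genes, and the unmatched held 0.03% of counts. Positions came from GENCODE M21. The genes described and all lists were chosen with earlier results of these data known.

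Counts were tested in R 4.3.3 with edgeR 4.0.16 (robust quasi-likelihood, TMM, filterByExpr), two-sided, with Benjamini-Hochberg adjustment over 11224 genes and a threshold of 0.05. SEs were derived from the fold change and F statistic. Alternatives used DESeq2 1.42.0, limma 3.58.1 (voom), other scalings and filters, a replicate block and each library left out. The fit was tested on simulated data. Profiles used log2(CPM + 0.5). Lengths were merged exons. No labels name molecular identifiers, so intervals and floors cover counting error only. The libraries are labelled biological replicates, and no 2 were copies of each other. Besides the genes chosen, genes were named by fixed rules: up to 4 called genes per direction in a list, or else the 2 with the highest mean CPM over all libraries, the called and the nearest tested neighbours, and the 3 nearest profiles. One gene these rules select is not reported here. Gclc, Ggt5, Gstm5, Mgst1, Alox5ap, Gsta1, Gsta2, Gm10639 and Gstt4 fell outside these rules and were chosen after their values were seen.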

Additional observations from a re-analysis of the deposited data

How the results depend on the processing

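Over 16 alternatives the log2 fold changes of the 10 genes kept their signs, with ranges of 5.42 to 5.97 for Gsta4, 3.45 to 3.97 for Gstt1, 3.33 to 3.84 for Gstt2, 2.60 to 3.43 for Gstt3, 1.72 to 2.26 for Ddt, 0.06 to 0.35 for Gstp1 and 0.77 to 1.21 for Gstp2. Low counts limit Gstt2, Gstt3, Gstt4, Gsta1 and Gm3776 most, and Gstt2, Gstt3 and Gm3776 passed the low-count filter only through their KO libraries. Gsta4, Cbr3, Wnt10b, Tcfl5 and Ggt5 likewise had too few control reads to pass it without their KO libraries. Of 318 genes called (249 higher, 69 lower), leaving out 1 library at a time gave 152 to 345 (133 to 255 higher, 15 to 90 lower), with 152 in the absence of KO library 1, 180 of KO library 2 and 157 of control library 2, no low-count filter 511 (138 lower), and leaving out control library 3 and KO library 1 together, an alternative added after seeing the data, 106 lower. Deviations of same-numbered libraries correlated weakly (0.14, -0.09 and -0.06). KO library 1 correlated best with control library 1, and KO library 2 with control library 3. No clear pairing by number was seen, but 3 libraries per group cannot exclude it. With the replicate number as a block, 206 genes were higher and 41 lower. Other transferases called, 1 here, numbered 4 without a filter (Gsta1, Gm3776, Gstt4 and Ltc4s), 2 with a 1 CPM filter, 3 without both libraries together (Gsta1, Gm3776 and Alox5ap) and 1 to 4 leaving out 1 library, with 4 (Gsta1, Gm3776, Ltc4s and Alox5ap) without control library 3. Calls in the other lists, 2 here, numbered 2 to 4 leaving out 1 library and 4 without both libraries together, where Idh1 and Mif were added, as they were without control library 3. Calls near Gsta4 and the Gstt cluster, 2 here, numbered 5 without a filter, with Gclc, Gsta1 and Gstt4 added, 2 to 4 leaving out 1 library, with Gsta1 and Mif added without control library 3, and 4 without both libraries together. Log2 fold changes near 0 turned sign for Gpx1 (0.0039 with upper quartile scaling, 0.0057 with limma-voom, 0.0035 with the block, 0.15 without both libraries, -0.13 to 0.13 leaving out 1 library), Cd44 (-0.019 with library totals, -0.016 to 0.080 leaving out 1 library, the lowest without KO library 3) and Rn7sk (-0.044 to 0.50 leaving out 1 library, the lowest without KO library 2). Gsta4 stood at 100.4 CPM per kb by its longest transcript. The cause of these shifts was not tested.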
